A study of Mus musculus with 8 samples.

Results

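The NF-kappaB genes described here are the 5 subunits Rela, Relb, Rel, Nfkb1 and Nfkb2, the IkappaB inhibitors Nfkbia, Nfkbib and Nfkbie, the feedback inhibitor Tnfaip3 and the target Icam1. They were taken by gene name, synonyms included, and every probe with such a name was kept. That gave 10 of the 20668 named genes on the array, with 15 of its 41174 non-control probes, printed as 42 spots. Of these, 14 probes of 9 genes were bright enough to test, among 28580 tested in all. Testing required the scanner software's flag for signal well above background on 4 or more of the 8 arrays.

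NF-kappaB is a family of dimeric transcription factors. In resting cells IkappaB proteins hold most dimers in the cytoplasm. Signals from receptors for TNF, interleukin-1 and microbial products activate the IKK kinases, which mark IkappaB for destruction, and the dimers enter the nucleus. Many of the genes they then switch on restrain the pathway itself, among them Nfkbia, Nfkbie, Tnfaip3 and the precursor subunits Nfkb1 and Nfkb2. In skin the pathway is known for its part in the inflammatory response to ultraviolet light and in keratinocyte homeostasis. Much of its activity is set by protein breakdown and movement into the nucleus, which an mRNA array does not measure.

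The mice were hairless SKH-1 males aged 19 weeks, and RNA was taken from dorsal skin. All backs had been exposed to UVB for 10 weeks, so the vehicle group is irradiated skin and no unirradiated skin was analysed here. The vehicle group had 30 vol % ethanol applied 5 times a week for 2 weeks, and the enalapril group had 1% w/v enalapril maleate in the same ethanol on the same schedule. Enalapril blocks the enzyme that makes angiotensin II, and the comparison asks what its topical use changes in UVB-exposed skin. Each group had 4 RNA samples, labelled as biological replicates, each on its own 1-colour Agilent array. The series description also speaks of 6 weeks of treatment and of 6 mice per group, while every sample here is labelled with 2 weeks. The labels do not say whether any sample pooled animals. The p-values set a group difference against the spread between these samples.

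Each level is a log2 processed intensity from which the 75th percentile of the same array was subtracted, so 0 stands for that percentile. Probes bind with different strength, so a difference in level between probes is not a difference in mRNA amount; where 2 probes are subtracted, only the change of that difference between the groups is read. The share of spots well above background was 67.1% to 72.7% per array, none was saturated, and the 75th percentile lay between 821.5 and 1540 intensity units. Other array measures did separate the groups. Median local background was 66, 65, 63 and 57.5 units in vehicle, against 52, 52, 51 and 48 in enalapril. Outlier spots numbered 1, 5, 1 and 5 in vehicle, against 18, 15, 12 and 27 in enalapril. The part of these differences in the changes below was not tested. Slide 1 and scan 1 held the vehicle group alone, and slide 2 and scan 2 the enalapril group, so for every difference below slide, scan and treatment cannot be told apart. The number of arrays limits the precision. Keratinocyte markers (Krt5, Krt14 and 6 others) and fibroblast markers (Col1a1, Dcn and 4 others) were all above the test's background limit, and none of these 14 passed the test.

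None of the 14 tested NF-kappaB probes passed the test, at a limma adjusted p under 0.05. Over all tested probes 10.4% passed, 3.82% higher and 6.61% lower in enalapril. The probes of Nfkb1, which encodes the p105 precursor of the p50 subunit, were the only ones with an unadjusted p under 0.05: all 4 of them, with log2 changes from 0.31 to 0.54, against 29.4% of all tested probes below that p. Rela, Relb and Nfkb2, the inhibitors Nfkbia, Nfkbib and Nfkbie, Tnfaip3 and both Icam1 probes all had 95% intervals that include 0. In the plot of changes, 10 of the 14 probes lay above 0 and 4 below, with a median log2 change of 0.15 beside −0.05 for all tested probes. These signs rest on the scaling: 5 of the 14 lay above 0 when arrays were centred on the E1A spike-in probes and 4 by the uncentred values of the series matrix. Several of these probes report the same gene, so the 14 are not independent. By the brightest probe of each of the 9 genes, 5 lay above 0 and the median was 0.01, beside −0.10 for all genes.

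**Figure D1:**
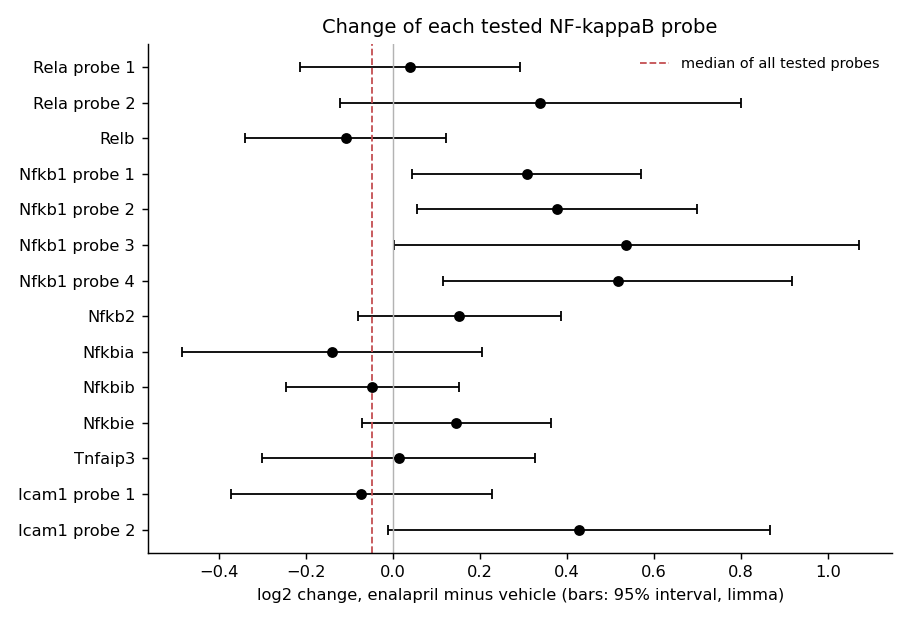
Log2 change (enalapril minus vehicle, horizontal axis) of each of the 14 tested probes, with limma's 95% interval as bars; n = 4 arrays per group. The dashed line is the median of all 28580 tested probes, −0.05; the 4 Nfkb1 intervals lie above 0 and the others include it.

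Since several of these genes are known targets of the pathway they regulate, their promoter letters are shown next. The published 10-base kappaB consensus was searched on both strands, overlapping matches counted, in the RefSeq promoter windows of GRCm38.p6, each 300 bases long with 250 before the start. Of 32851 windows, 4.51% hold at least 1 match and 0.554% hold 2 or more. For the members, 8 genes have 11 windows, and 7 of these windows, of the 5 genes Rel, Nfkb2, Nfkbia, Nfkbie and Tnfaip3, hold a match. Windows for Nfkb1 and Relb are not given here. No match was found in the windows of Rela, Nfkbib and Icam1 or in that of the other Tnfaip3 start, which says only that those exact letters are not there. The 150 bases before the start are printed for the inhibitors Nfkbia, Nfkbie and Tnfaip3 and for Nfkb2, the tested genes with a match in that stretch, on the gene's strand with matches on either strand in capitals.
Nfkbia, chr12:55492648-55492797, minus strand: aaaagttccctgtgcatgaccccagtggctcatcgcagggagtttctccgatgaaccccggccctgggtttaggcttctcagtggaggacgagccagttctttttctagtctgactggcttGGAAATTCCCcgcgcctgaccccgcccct
Nfkbie, chr17:45555550-45555699, plus strand: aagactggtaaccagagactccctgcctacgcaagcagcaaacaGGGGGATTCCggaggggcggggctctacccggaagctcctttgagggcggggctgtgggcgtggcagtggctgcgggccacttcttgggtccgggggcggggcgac
Tnfaip3, chr10:19015411-19015560, minus strand: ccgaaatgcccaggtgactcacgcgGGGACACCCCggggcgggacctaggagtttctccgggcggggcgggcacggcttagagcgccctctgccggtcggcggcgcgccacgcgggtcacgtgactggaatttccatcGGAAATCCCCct
Nfkb2, chr19:46304587-46304736, plus strand: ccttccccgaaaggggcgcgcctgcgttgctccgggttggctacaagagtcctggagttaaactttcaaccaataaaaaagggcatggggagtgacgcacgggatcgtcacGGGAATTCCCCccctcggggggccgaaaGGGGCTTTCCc
In Nfkbia the match lies 29 to 20 bases before the start and in Nfkbie 106 to 97 bases before it. Tnfaip3 has a match 125 to 116 bases and another 12 to 3 bases before its start. The longer capital run of Nfkb2 is a pair of overlapping matches, and its other match ends 2 bases before the start. The letters TATAAA on the gene's strand occur in 8.32% of all windows, and among the members in a window of Icam1 and one of Tnfaip3.

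**Figure D2:**
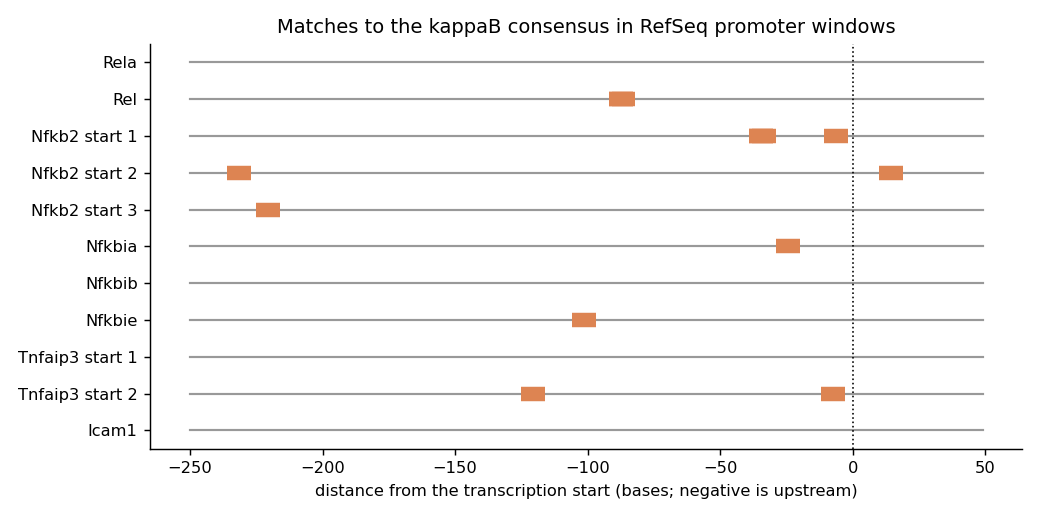
Matches to the kappaB consensus (filled boxes, either strand) in the 11 RefSeq promoter windows of 8 members, by distance in bases from the transcription start (dotted line; negative is upstream). Matches lie in 7 windows; the match after the second Nfkb2 start and that of the third Nfkb2 start are the same genomic site, since these windows overlap.

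No probe of Rela or Relb, subunits with a transactivation domain, passed the test, and Rel, the other such subunit, could not be tested. Rela encodes p65, the subunit that carries the transcription-activating function of the common p50 to p65 dimer, and it had 2 probes to the same RefSeq transcript. Its first probe read 1.90, 1.92, 2.03 and 1.94 on the vehicle arrays and 1.86, 1.85, 2.22 and 2.02 on the enalapril arrays. These ranges overlap, and the log2 change was 0.04 ± 0.11 (SE; limma adjusted p = 0.845), with a 95% interval from −0.21 to 0.29. As a fold this allows from 0.863 to 1.22. The second Rela probe, printed on 10 spots, read −2.01, −2.19, −1.68 and −2.03 in vehicle and −2.06, −1.87, −1.22 and −1.40 in enalapril. Enalapril 3 and enalapril 4 stood above all vehicle arrays and the other two lay among them. The change was 0.34 ± 0.20 (adjusted p = 0.300; interval −0.12 to 0.80).

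Relb encodes the subunit that pairs with p52 in the non-canonical pathway. It read 1.80, 1.80, 1.66 and 1.71 in vehicle and 1.55, 1.50, 1.68 and 1.79 in enalapril. Enalapril 1 and enalapril 2 lay below every vehicle array, while enalapril 4 was close to the highest of them. The change was −0.11 ± 0.10 (adjusted p = 0.510; interval −0.34 to 0.12). Rel, which encodes c-Rel, the subunit best known from lymphocytes, was not well above background on any of the 8 arrays, so it was not tested and no fold is given. Its measured values ran from −8.48 to −7.13 in vehicle and from −8.75 to −6.59 in enalapril. Less RNA per cell and fewer cells of a type cannot be told apart in whole skin, for Rel or for any gene here.

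Nfkb1 was read by 4 probes to 4 different transcript records, and each had a higher mean in enalapril than in vehicle. The probe to its RefSeq transcript (probe 1, 10 spots) read 0.58, 0.76, 0.52 and 0.91 in vehicle and 0.89, 1.02, 1.11 and 0.98 in enalapril. Only vehicle 4 reached into the enalapril range. The change was 0.31 ± 0.12 (unadjusted p = 0.0269, adjusted p = 0.120), a fold of 1.24 with a 95% interval from 1.03 to 1.49. Probe 2 read −0.80, −0.84, −1.08 and −0.87 in vehicle and −0.74, −0.25, −0.36 and −0.73 in enalapril, so all 4 enalapril arrays lay above all 4 vehicle arrays. It was the only 1 of the 14 probes whose groups did not overlap; over all tested probes 20.2% had non-overlapping groups, 7.12% with enalapril higher and 13.1% with enalapril lower. Its change was 0.38 ± 0.14 (adjusted p = 0.120).

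Probe 3 of Nfkb1 read −1.54, −1.50, −1.34 and −1.54 in vehicle and −0.98, −0.55, −0.58 and −1.67 in enalapril. Enalapril 4 was below every vehicle array and the other 3 enalapril arrays above all of them. The change was 0.54 ± 0.23 (adjusted p = 0.169). Probe 4 read −3.60, −3.98, −3.93 and −3.52 in vehicle and −3.21, −3.04, −3.05 and −3.67 in enalapril. Enalapril 4 was again the lowest enalapril array, here inside the vehicle range. Its change was 0.52 ± 0.18 (adjusted p = 0.0939), the smallest adjusted p of any member. As a fold it was 1.43, with an interval from 1.08 to 1.89.

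For probes 3 and 4 of Nfkb1 the call turned on 1 array. Without enalapril 4, probe 3 had a log2 change of 0.78 (adjusted p = 0.00813) and probe 4 of 0.66 (adjusted p = 0.0157), and both passed; in that fit the share of all probes that passed was 24.7%. Probe 1 (0.32, adjusted p = 0.09998) and probe 2 (0.45, adjusted p = 0.0522) did not pass in it. Under limma's array weights, which give less weight to arrays that depart from their group, all 4 Nfkb1 probes passed, with changes of 0.31, 0.50, 0.82 and 0.67, and 29.9% of all probes passed. No Nfkb1 probe passed in the other 7 fits with an array left out. The size of the changes also rests on the scaling. Centring on the E1A probes moved the median of all tested probes to −0.38 and the series matrix values moved it to −0.41; the change of Nfkb1 probe 1 then became −0.02 and −0.06. Probes 2, 3 and 4 stayed above 0, at 0.05, 0.21 and 0.19 by E1A centring and at 0.01, 0.17 and 0.15 by the series matrix. Relative to the median of all probes the 4 reported changes were 0.36, 0.42, 0.58 and 0.56, which a constant shift of an array leaves as they are. Normexp background correction, which is not such a shift, gave −0.07, 0.12, 0.28 and 0.56 relative to its median. With 6 misread local backgrounds repaired, normexp gave 0.22, 0.28, 0.42 and 0.35 relative to the median of that run.

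**Figure D3:**
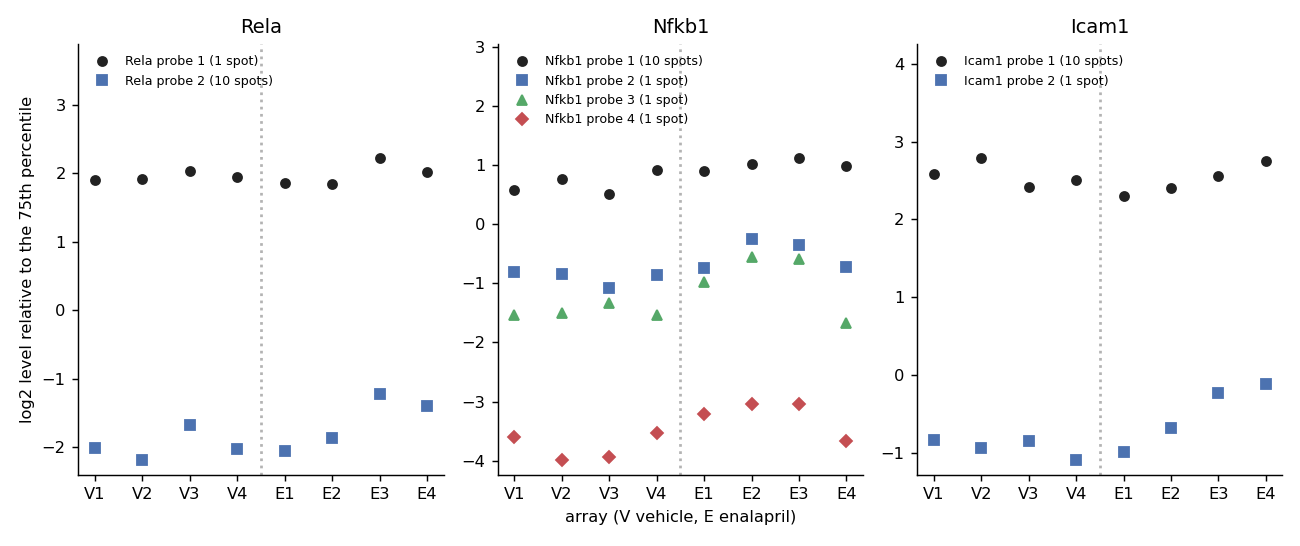
Log2 level relative to the array's 75th percentile (vertical axis) of each probe of Rela, Nfkb1 and Icam1 on each array (V, vehicle; E, enalapril; replicates have no order). Enalapril 4 sits low for Nfkb1 probes 3 and 4, at −1.67 and −3.67.

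Nfkb2 encodes p100, which acts as an inhibitor until it is cut to the p52 subunit. It read 0.70, 0.61, 0.69 and 0.52 in vehicle and 0.76, 0.61, 0.87 and 0.90 in enalapril. Enalapril 2 lay inside the vehicle range and the other 3 above it. The change was 0.15 ± 0.10 (adjusted p = 0.354; interval −0.08 to 0.39), so a rise of up to 1.31-fold or a small fall is within the interval. Relative to the median of all probes it was 0.20.

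Nfkbia encodes IkappaB-alpha, the inhibitor that NF-kappaB induces fastest and that ends a pulse of activity. It read 4.83, 4.67, 4.85 and 5.04 in vehicle and 5.10, 4.59, 4.65 and 4.50 in enalapril. Enalapril 1 was the highest of all 8 arrays and the other 3 enalapril arrays were the lowest. The change was −0.14 ± 0.15 (adjusted p = 0.576), and the interval from −0.49 to 0.21 allows folds from 0.714 to 1.15.

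Nfkbib, which encodes IkappaB-beta, had the smallest standard error of the 14 probes. It read 1.87, 1.77, 1.86 and 1.73 in vehicle and 1.71, 1.77, 1.82 and 1.75 in enalapril, and the groups covered almost the same range. Its change was −0.05 ± 0.09 (adjusted p = 0.757), with folds from 0.843 to 1.11 inside the interval. Nfkbie, which encodes IkappaB-epsilon, read 0.62, 0.89, 0.78 and 0.71 in vehicle and 0.89, 0.90, 0.84 and 0.96 in enalapril. Vehicle 2 lay within the enalapril range and the other vehicle arrays below it. The change was 0.15 ± 0.10 (adjusted p = 0.343; interval −0.07 to 0.36).

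Tnfaip3 encodes A20, a ubiquitin-editing enzyme that shuts off signalling upstream of the kinases. It read 1.00, 0.56, 0.46 and 0.58 in vehicle and 0.80, 0.61, 0.51 and 0.73 in enalapril. Vehicle 1 was the highest array, and all enalapril values lay within the vehicle range. The change was 0.01 ± 0.14 (adjusted p = 0.960), and the interval from −0.30 to 0.33 corresponds to folds from 0.812 to 1.25.

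Icam1 encodes the adhesion molecule to which leukocyte integrins bind and is a much used readout of NF-kappaB activity. Its first probe, on 10 spots, read 2.59, 2.78, 2.42 and 2.51 in vehicle and 2.30, 2.41, 2.55 and 2.75 in enalapril. The ranges overlap, and the change was −0.07 ± 0.13 (adjusted p = 0.753; interval −0.37 to 0.23). The second Icam1 probe read −0.84, −0.94, −0.85 and −1.08 in vehicle and −0.98, −0.68, −0.22 and −0.11 in enalapril. Enalapril 2, 3 and 4 stood above all vehicle arrays and enalapril 1 lay among them. Its change was 0.43 ± 0.19 (unadjusted p = 0.0549, adjusted p = 0.179; interval −0.01 to 0.87). The probes of this gene had opposite signs, neither past the test, and by quantile normalization probe 1 was 0.07, with the sign of probe 2.

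**Figure D4:**
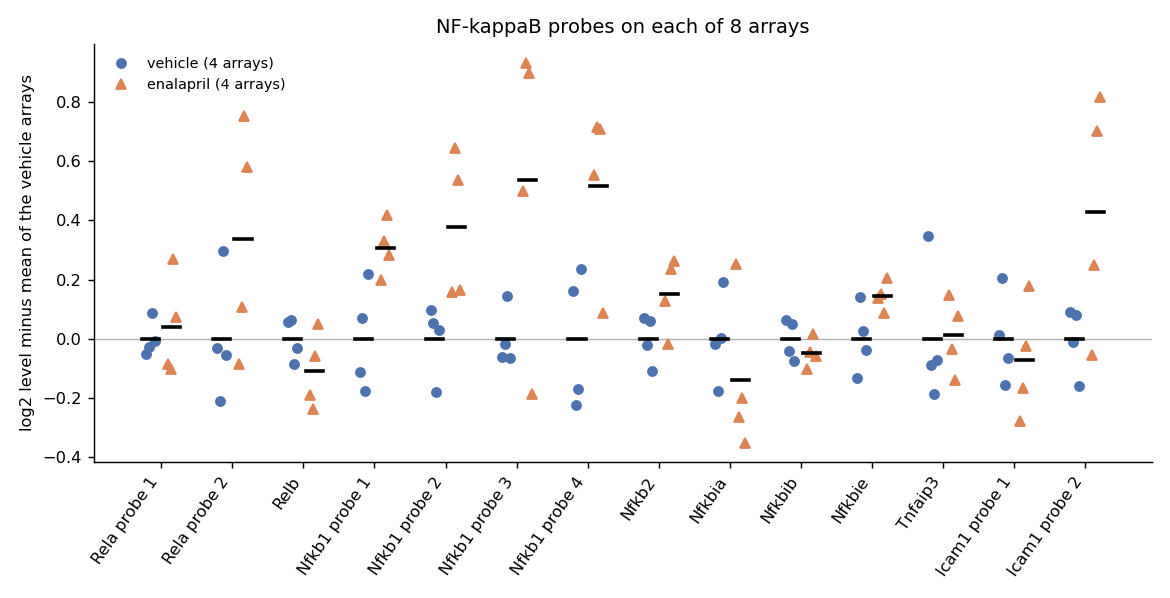
Log2 level of the 14 tested probes on each array, minus the mean of the 4 vehicle arrays (circles, vehicle; triangles, enalapril; lines, group means). For Nfkb1 probe 2 the groups do not overlap; for every other probe they do.

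Probes of the same gene were compared within each array, where the array's scaling cancels. For Icam1, probe 1 minus probe 2 was 3.501 ± 0.199 (SD, n = 4) in vehicle and 3.001 ± 0.227 in enalapril, a difference of −0.50 (exact two-sided permutation p = 0.0571, adjusted p = 0.457 over 8 such pairs). With 4 arrays against 4 the smallest p this test can give is 0.0286. After adjustment over 8 pairs a single pair could therefore not reach an adjusted p under 0.05, whatever its values. For Rela the probe difference was 3.92 ± 0.16 in vehicle and 3.62 ± 0.24 in enalapril (difference −0.30, exact permutation p = 0.143, adjusted p = 0.571). The 6 pairs among Nfkb1 probes gave differences from −0.23 to 0.02. Probes of a gene are numbered by falling mean level, so each pair is the brighter minus the dimmer probe. Every pair except Nfkb1 probe 3 minus probe 4 was negative, the dimmer probe having the higher log2 change. A dependence of the change on brightness was not tested, and a constant scaling of the array would not remove it. Over the 10 spots of a probe on 1 array, the SD ran from 0.027 to 0.119 for Rela probe 2, from 0.033 to 0.130 for Nfkb1 probe 1 and from 0.027 to 0.046 for Icam1 probe 1. The SD between the vehicle arrays was larger, at 0.21, 0.18 and 0.15. Between the enalapril arrays it was 0.39, 0.09 and 0.20, so for Nfkb1 probe 1 it lay below the largest SD over spots.

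The ratio of each other tested gene, by its brightest probe, to the inhibitor gene Nfkbia was compared in the same way, by the log2 difference between both probes on each array. Nfkb1 probe 1 minus Nfkbia was −4.16 ± 0.18 (SD, n = 4) in vehicle and −3.71 ± 0.34 in enalapril, a difference of 0.45. That gave an exact two-sided permutation p of 0.0857, or 0.610 adjusted over 8 ratios. The corresponding differences were 0.29 for Nfkb2, 0.29 for Nfkbie and 0.18 for Rela probe 1. They were 0.15 for Tnfaip3, 0.09 for Nfkbib, 0.07 for Icam1 probe 1 and 0.03 for Relb. Each of them also holds the change of Nfkbia itself, −0.14, with its sign turned. None passed, but with 4 arrays against 4 and adjustment over 8 ratios a single ratio could not have passed. No conclusion is drawn from that outcome.

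Other genes of the pathway were taken from 6 lists by role, each gene by its brightest probe. Of 79 genes 77 were tested; 1 was higher and 4 were lower in enalapril. Among all 15974 genes by brightest probe, 11.2% passed, 2.7% higher and 8.5% lower. The groups did not overlap for 1 gene with enalapril higher and for 8 with enalapril lower; among all genes that share was 22.4%, made up of 5.79% higher and 16.6% lower. The median log2 change of the 77 was −0.03, beside −0.10 for all genes. Of the 11 receptors, Il1rap, the accessory chain of the interleukin-1 receptor, rose and Cd40, a TNF-family receptor of B cells and other antigen-presenting cells, fell. Il1rap read −1.04, −0.82, −1.04 and −1.07 in vehicle and −0.29, −0.38, −0.27 and −0.65 in enalapril, all enalapril arrays being higher. Its change was 0.59 ± 0.12 (adjusted p = 0.0238), but the other Il1rap probes gave −0.02 and 0.08. Cd40 read −1.43, −1.42, −1.31 and −1.17 in vehicle and −1.87, −1.89, −1.99 and −1.67 in enalapril, without overlap. Its change was −0.52 ± 0.11 (adjusted p = 0.0270).

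Of the 14 adaptors, Traf2 and Tirap fell. Traf2 carries signals from TNF receptors, and its level was 1.87 ± 0.12 (SD, n = 4) in vehicle and 1.40 ± 0.16 in enalapril, a change of −0.48 ± 0.12 (SE; adjusted p = 0.0381). Tirap, an adaptor of Toll-like receptors, changed by −0.45 ± 0.11 (adjusted p = 0.0394), while its other probe gave −0.02. Among the 16 other inhibitors Pdlim2, which promotes the breakdown of nuclear p65, fell by 0.51 ± 0.10 on the log2 scale (adjusted p = 0.0255), and its other probe gave −0.06. Commd1, also linked to p65 breakdown, gave −0.35 (adjusted p = 0.0734) by its brightest probe. None of the 10 kinases passed: Tab1 gave −0.35 (adjusted p = 0.0691) and Ikbkb, the catalytic IKK-beta, 0.21 (adjusted p = 0.369).

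No ligand and no other target passed. Tnf, Il1a, Il1b, Lta, Ltb and Tnfsf13b were the 6 ligands tested. Ltb gave −0.13 (adjusted p = 0.403) and Lta −0.30 (adjusted p = 0.421). Cd40lg was not well above background on any array and Tnfsf11 was on 3, so neither was tested. Of the 20 other targets, the chemokine gene Ccl5 gave −0.68 ± 0.20 (adjusted p = 0.0633) and Gadd45b, a stress-response gene, −0.46 ± 0.16 (adjusted p = 0.108). List medians were −0.01 for receptors, −0.10 for adaptors, 0.04 for kinases, 0.02 for other inhibitors, −0.10 for ligands and −0.07 for other targets. All 5 genes kept their direction in every alternative run, but size and call did not hold throughout. Il1rap became 0.26 (adjusted p = 0.408) by E1A centring and 0.23 (adjusted p = 0.640) by the series matrix, and Cd40 became −0.14 (adjusted p = 0.726) under normexp. E1A centring and the series matrix gave −0.89 to −0.78 for Cd40, Traf2, Tirap and Pdlim2, and quantile normalization gave −0.32 (adjusted p = 0.0857) for Pdlim2. None of the 5 passed by the series matrix or under unrepaired normexp, in which 0 of all probes passed. Under repaired normexp Il1rap, Pdlim2 and Tirap passed (limma adjusted p = 0.0298, 0.0374 and 0.0412). Cd40 (−0.41, adjusted p = 0.0539) and Traf2 (−0.45, adjusted p = 0.0527) did not pass in that run. Cd40, Traf2 and Tirap kept their call in 1 of 8 fits with an array left out, that without enalapril 4. Pdlim2 kept its call without vehicle 3 or enalapril 4, and Il1rap without vehicle 2, vehicle 3 or enalapril 4.

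**Figure D5:**
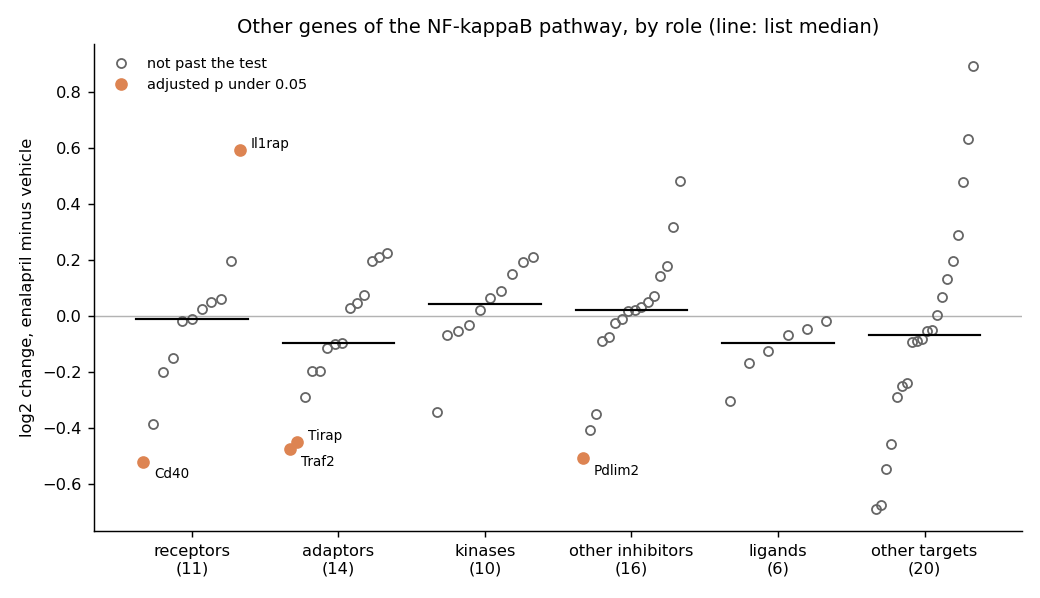
Log2 change (enalapril minus vehicle) of the 77 tested pathway genes in 6 role lists, each gene by its brightest probe, with the list median as a line; filled points passed at an adjusted p under 0.05. Il1rap lies at 0.59, and Cd40, Traf2, Tirap and Pdlim2 between −0.52 and −0.45.

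Markers of other cell types in whole skin were measured beside these genes. All 12 leukocyte markers were tested and 1, Itgam, was higher in enalapril, by 0.58 (adjusted p = 0.0324). Only 4 of the 12 lay above 0, and the list median was −0.10, beside −0.10 for all genes. The summed linear level of that list was 210.1 to 323.3 in vehicle and 213.4 to 271.9 in enalapril, in units of the array's 75th percentile; such sums weigh the brightest probes most and are compared only between the groups. No endothelial marker of 10 passed, with sums of 17.0 to 19.0 and 14.97 to 20.64. Of 8 skeletal muscle markers 4 fell, among them Mylpf and Tnnt3, with sums of 419.2 to 663.5 in vehicle and 380.2 to 400.1 in enalapril. Of 7 adipocyte markers 3 fell (Adipoq, Cidec and Slc2a4), with sums of 196.0 to 253.2 and 141.2 to 197.3. No marker in these lists was missing or too dim to test. The part of a changed tissue make-up in the values of the pathway genes was not tested.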

How the data were processed

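Cy3-labelled RNA from 8 samples was read on 8 Agilent arrays. The deposited scanner files hold spot intensity values on a linear scale, made with Agilent Feature Extraction 9.1.3.1 per the file headers (9.1 per the submitters' processing notes), with background subtracted and no scaling between arrays. The deposited flags of the same software (well above background, outlier, saturated) are other values and set which spots and probes were kept. Values of the deposited series matrix are on the log2 scale and matched the uncentred processed intensity. Outlier spots were removed, spots of a probe averaged on the log2 scale, the array's 75th percentile subtracted, and 47 probes with no usable spot on some array left out. Probes were named through the GRCm38.p6 reference names (22951 by accession, 6661 by symbol, 3084 by synonym, 1319 by the file's own name; 7159 stayed unnamed). The array files name no genome build, so probes have no coordinates here.

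The files were read with version 1.17.8 of data.table. The tests ran under R 4.3.3 with lmFit and eBayes of limma 3.58.1, two-sided, with the group as only term and Benjamini-Hochberg adjustment over 28580 probes. All probes of the members were named whatever their value. In each pathway list the genes past the test were named, at most 4, and where fewer than 2 passed, the 2 with the smallest p. The 5 genes most like the member of smallest p were named too, and any other gene was chosen after its values were seen. Members and lists were chosen with earlier results of these data known. The pipeline was tested on simulated data. Alternatives were normexp (offset 50, also with 6 misread local backgrounds repaired), quantile, median and E1A centring, the series matrix, other filters on dim probes, one probe per gene, trend with robust estimation, array weights, a replicate block, an adjusted p under 0.10 and each array left out.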

Additional observations from a re-analysis of the deposited data

Results flagged for a closer look

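Within the 54 groups of 4 arrays examined for member and named pathway genes, 5 held an array whose gap to its nearest neighbour took a larger part of the group's range than Dixon's critical value allows. Chance flags about 1 in 20 groups, which is 2.7 of 54; the excess was not tested. None of the 5 concerned an NF-kappaB member. For Il1rap, vehicle 2 read −0.82 and the other vehicle arrays −1.07 to −1.04. For Tab1, vehicle 3 read 2.49 beside 2.53 to 2.54, and enalapril 4 read 2.41 beside 2.08 to 2.11. For Commd1, vehicle 1 read 3.29 while the others lay at 3.20, and enalapril 3 read 2.61 beside 2.95 to 2.97.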

How the results depend on the processing

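No member passed in the reported fit, under normexp, quantile or median centring, E1A centring, the series matrix, other filters, 1 probe per gene or the trend fit. At an adjusted p under 0.10 1 member probe passed, under array weights 4, and with an array left out 0 to 2, all of them probes of Nfkb1. Of the pathway genes, 5 passed as reported, 0 under normexp, 3 under repaired normexp, quantile or median centring, 2 by the series matrix or with no filter, 8 with the trend fit or at 0.10, 13 under array weights, and 0 to 10 with an array left out. These counts are over all tested pathway genes. The 2 by the series matrix are not among the 5, and Ccl5 is 1 of them (−1.04, limma adjusted p = 0.0439). Ccl5 also passed by E1A centring, with the trend fit and under array weights. Over all probes 2979 passed as reported, 0 under normexp, 1602 under its repaired form, 1981 under median centring, 1548 by the series matrix, 1392 with no filter, 8534 under array weights and 5526 at 0.10. With an array left out, 396 (without vehicle 1) to 6991 (without enalapril 4) passed. The cause of these shifts was not tested. With the replicate number as a replicate block 0 members, 0 pathway genes and 38 probes passed. After each probe's group mean was subtracted, same-numbered vehicle and enalapril arrays correlated from −0.13 to 0.17. Different-numbered ones correlated from −0.16 to 0.22 in these deviations, so no sign of pairing by number was seen. The labels do not say whether the numbers pair the samples. A slide or scan block could not be fitted and was not run.

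Of calls, 36.6% were higher as reported, 46.7% by quantile normalization, 3.92% by E1A centring and 4.97% by the series matrix. E1A centring turned Rela probe 1 to −0.289, Nfkb1 probe 1 to −0.0203, Nfkb2 to −0.176, Nfkbie to −0.182, Tnfaip3 to −0.315 and Ikbkb to −0.118. The series matrix turned the same ones to −0.326, −0.0573, −0.213, −0.219, −0.352 and −0.155, and Rela probe 2 to −0.0264. Quantile normalization turned Nfkbia to 0.0315, Nfkbib to 0.0441, Icam1 probe 1 to 0.0688 and Ltb to 0.0268. Normexp turned Rela probe 1 to −0.162, Tnfaip3 to −0.009 and Lta to 0.485, and its repaired form Rela probe 1 to −0.0227. Median centring turned Tnfaip3 to −0.0229, and array weights turned it to −0.0495 and Rela probe 1 to −0.0051. With an array left out, Rela probe 1 ran from −0.0374 to 0.0865 and Tnfaip3 from −0.0494 to 0.129. Within these alternatives, 256 of the member values kept direction and side of the threshold, 7 passed newly and 26 changed sign; none changed sign and passed. Near-background signal limits Rel, Cd40lg and Tnfsf11.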

Other observations

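The 5 named genes whose brightest probe followed Nfkb1 probe 4 most closely over the 8 arrays were Pif1 (Pearson's r = 0.962), Rab3gap1 (0.960), Mindy2 (0.955), Uap1 (0.953) and Ints6 (0.952). Pif1, a DNA helicase, was the only one of them past the test, with a log2 change of 1.30 (limma adjusted p = 0.0442). Rab3gap1 gave 0.28, Mindy2 0.18, Uap1 0.35 and Ints6 0.21. The 8 arrays share the treatment groups and slides, and the genes were picked as the highest of many, so these values are a description only. Within groups, as deviations from the group means, the 5 correlations were 0.915, 0.908, 0.896, 0.894 and 0.910.

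Genes with a kappaB consensus match in a RefSeq promoter window were counted over the whole array. Of 12302 tested genes with a window, 2.41% were higher and 8.85% lower in enalapril, with a median log2 change of −0.10. Among the 781 of them with at least 1 match, 15 were higher (1.92%) and 53 lower (6.79%), with a median of −0.08. Among the 101 with 2 or more matches, 1 was higher and 6 were lower, with a median of −0.05.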
